A study of Mus musculus with 20 samples.

Results

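The 10 genes described here encode 3 precursors of the cornified envelope (Ivl, Sprr1a and Sprr1b), 4 desmosomal cadherins (Dsc2, Dsc3, Dsg2 and Dsg3) and 3 proteins of the desmosomal plaque (Dsp, Pkp1 and Pkp3). They were chosen by name, with earlier results of these data known, so their counts beside shares of all genes are descriptions. Each matched 1 of the 45318 gene IDs in the count tables, and all 10 were among the 18698 genes with enough reads to be tested. Polyadenylated RNA was sequenced from 20 mammary libraries of FVB mice in 7 groups. WT (wild type) mammary gland is represented by 3 libraries of organoids cultured for 6 days. From MMTV-PyMT mice, in which the MMTV promoter drives the polyoma middle T antigen in mammary epithelium, come 3 tumor section libraries (30 µm), 3 of organoids taken at day 0 directly after preparation and 3 titled day 6. A further 2 PyMT organoid libraries with no day in the title carry the same 6 days in their culture label and are called undated. MMTV-Neu-NDL mice, which carry an activated Neu (ErbB2) receptor, are the source of 3 organoid libraries cultured as long. The last 3 libraries are tumor sections, again of 30 µm, of the genotype MMTV-Cre;Flox-Neo-Neu-NT. This genotype combines Cre made from the MMTV promoter with the allele named Flox-Neo-Neu-NT. Organoids are fragments of gland or tumor epithelium, cultured in Matrigel with FGF2. The labels name no animals, so p-values cover only the variation among the libraries at hand, which may be technical. WT tissue was only sequenced as cultured organoids, so tumor, tissue form and culture cannot be told apart in the comparisons of sections with WT.

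Desmosomes are spot junctions that tie the keratin filaments of neighboring epithelial cells together. Desmogleins and desmocollins, which are cadherins, bind across the gap between the cells, and plakoglobin (Jup), plakophilins and desmoplakin (Dsp) link their tails to keratin. Simple epithelia rely mainly on Dsg2 and Dsc2, while the isoforms Dsg1, Dsg3, Dsc1, Dsc3 and Pkp1 are typical of stratified epithelia such as the epidermis. The cornified envelope is the crosslinked protein shell of the outermost epidermal cells; transglutaminases assemble it from involucrin (Ivl), small proline rich proteins (Sprr) and other precursors. The mammary gland has an inner luminal and an outer basal, myoepithelial layer joined by desmosomes.

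The libraries held 17478357 to 48341438 reads counted on genes, and levels are given as CPM, the count relative to a library's total after scaling for its composition. All 10 luminal epithelial markers had reads in every library, and their summed level was 3566 to 10469 CPM. The summed level of 10 basal and myoepithelial markers was 2794 to 3498 CPM in WT organoids, 110 to 368 in PyMT sections, 245 to 446 at day 0, 123 to 6629 in the 5 PyMT organoid libraries labelled 6 days, 162 to 624 in Neu-NDL organoids and 289 to 2139 in Neu-NT sections. The 2139 CPM was in Neu-NT replicate 3 and was mostly Krt14, as given with the keratins of that library below. Krt19, a luminal marker, was also far higher there than in the other Neu-NT sections. In bulk samples, fewer cells of a type and less RNA per cell cannot be told apart, and the part of basal cell content in the results below was not tested. The library titled PyMT organoids day 6 replicate 3 went against its label: of all 190 pairs of libraries, it and PyMT section replicate 3 had the highest correlation of log2 CPM (r = 0.991 over genes) and the lowest chi-square per degree of freedom (37.7, against 45.2 to 564 within groups), although both differed by far more than sampling noise. Its endothelial marker sum was 206 CPM, against 6.39 to 8.07 in the other 4 PyMT libraries of 6 days. Neu-NT section replicate 3 also stood apart from its group, as described with the plaque genes. For each comparison, the number of the 10 genes called is given with and without those 2 libraries. Day 6 replicate 2 was different again: its summed epidermal keratinocyte markers reached 735 CPM, against 9.35 to 26.3 in the other 4 and 43.7 to 62.7 in WT organoids.

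Ivl, the envelope scaffold precursor, was at 12.4, 23.4 and 26.9 CPM in WT organoids. It had 0 counts in all 3 PyMT sections, in day 0 replicates 1 and 3 and in the library titled day 6 replicate 3, and 0.505 CPM in day 0 replicate 2. The other PyMT organoids of 6 days had 0.109 and 3.38 CPM (day 6 replicates 1 and 2) and 0.369 and 0.221 (undated). Neu-NDL organoids had 0.262, 8.91 and 0.0481 CPM, and Neu-NT sections 1.70, 3.24 and 0.569. Every tumor library was therefore below every WT library, and within Neu-NDL a single library, replicate 2, held most of the signal. All 3 Neu-NT sections were above the PyMT organoid libraries other than day 6 replicate 2.

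Sprr1a, which encodes a small proline rich crosslinking protein, was at 30.9, 40.0 and 71.7 CPM in WT organoids and at 0.400, 1.41 and 0.0396 in PyMT sections. It was at 0.883, 5.51 and 0.355 CPM at day 0. In PyMT organoids after 6 days it was at 1.30, 122 and 0.0388 CPM (day 6) and 5.47 and 4.46 (undated), so 1 library lay above WT and the others below. Neu-NDL organoids had 1.07, 58.5 and 1.08 CPM, and Neu-NT sections 0, 0 and 1.86. The high libraries were day 6 replicate 2 and Neu-NDL replicate 2, the same 2 that were highest for Ivl among tumor organoids. Sprr1b, its close relative, was lower throughout: 0.811 to 2.15 CPM in WT organoids, 0 to 0.404 in PyMT sections and at day 0, 0 in the 3 Neu-NT sections, 3.46 in Neu-NDL replicate 2 and 31.3 in day 6 replicate 2. Among the WT, day 6, undated and Neu-NDL groups the ranges of Sprr1b overlapped.

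Promoters were available for 4 of the 10 genes, and those of these 3 genes are shown. The 3 genes had their highest levels among tumor libraries in the same 2 organoid libraries, and a link between promoter and level was not tested. All 3 lie on the minus strand of chromosome 3, in the epidermal differentiation complex, with Ivl at chr3:92570902-92573735, Sprr1a at chr3:92483952-92485895 and Sprr1b at chr3:92436809-92438789. The windows run from 160 to 21 bases before the RefSeq start in GRCm38.p6, at chr3:92573756-92573895, chr3:92485902-92486041 and chr3:92438800-92438939. Capitals mark the AP-1 motif TGANTCA and the TATA box TATAAA.
Ivl: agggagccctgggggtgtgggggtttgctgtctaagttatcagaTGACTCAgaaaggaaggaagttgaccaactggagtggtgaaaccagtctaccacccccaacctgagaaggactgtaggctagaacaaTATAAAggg
Sprr1a: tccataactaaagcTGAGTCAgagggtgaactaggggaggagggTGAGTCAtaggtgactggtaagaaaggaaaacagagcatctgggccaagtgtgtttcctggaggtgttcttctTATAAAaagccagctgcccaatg
Sprr1b: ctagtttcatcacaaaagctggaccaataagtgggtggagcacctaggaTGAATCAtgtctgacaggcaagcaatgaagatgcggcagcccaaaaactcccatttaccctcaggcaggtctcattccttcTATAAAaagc
Searched on both strands of the whole window of 250 bases before to 50 after the start, the AP-1 motif begins 116 bases before the start in Ivl, 146 and 116 in Sprr1a and 111 in Sprr1b, and the TATA box 29, 43 and 30 bases before it. Of 32851 RefSeq promoter windows of that length, 7.81% hold the AP-1 motif, 13.6% the TATA box and 1.54% both. The grainyhead motif AACNGGTT, held by 2.09% of windows, was in none of the 3. The table held 4 of the 10 genes, and the window of the other one, Dsp, held none of the 3 motifs. A match describes the letters and shows no binding.

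**Figure D1:**
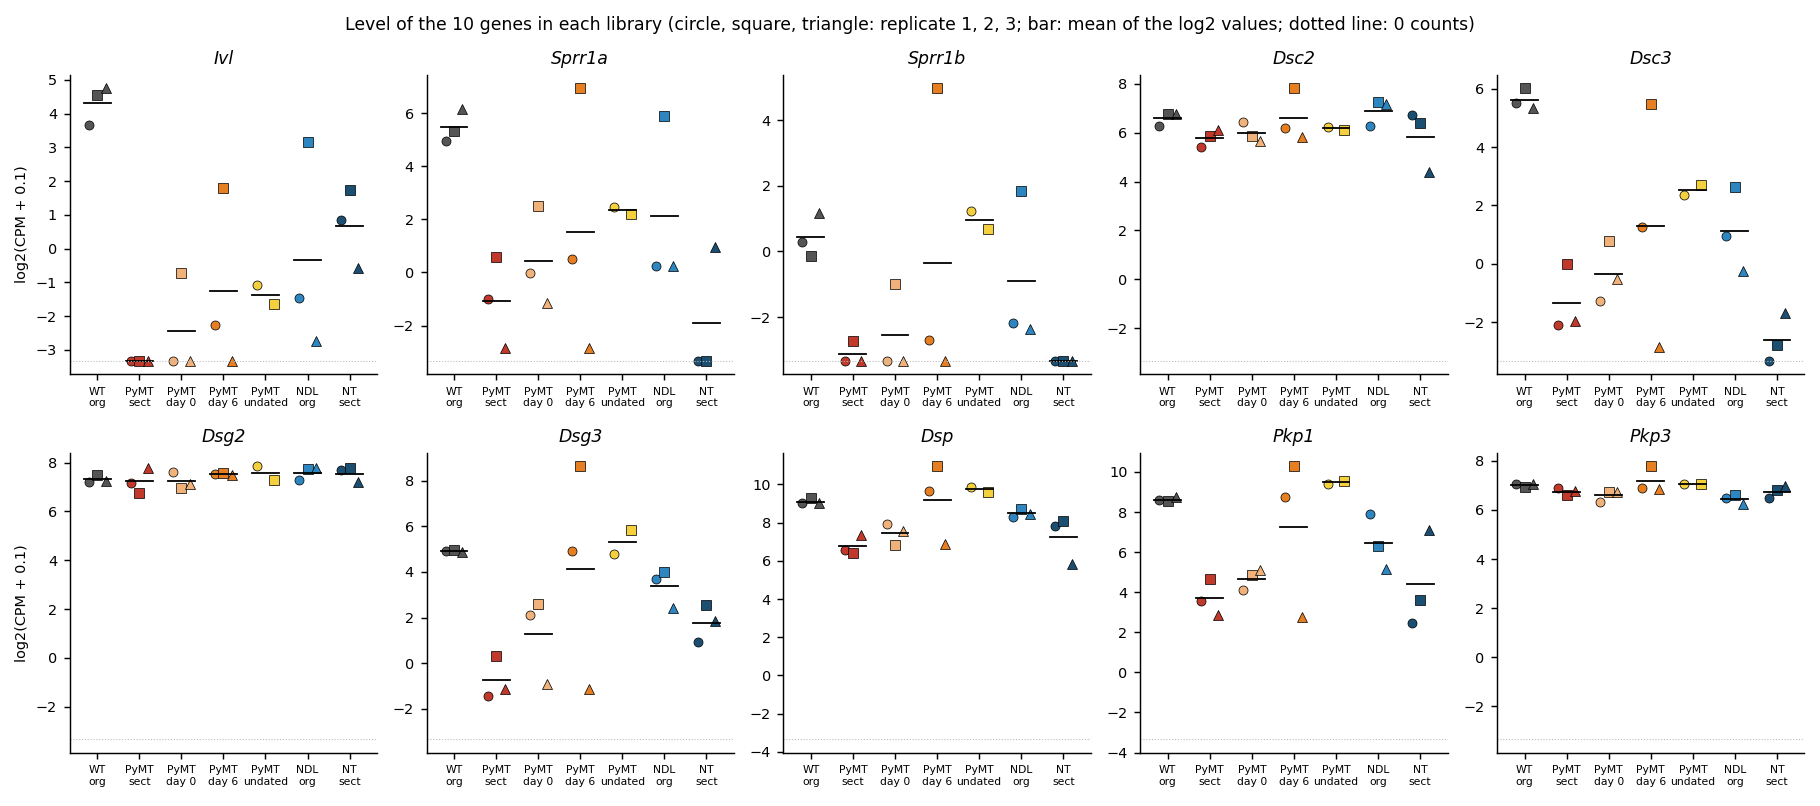
Level of each of the 10 genes in the 20 libraries as log2(CPM + 0.1), with replicates 1, 2 and 3 as circles, squares and triangles, a bar at the mean of the log2 values of each group and a dotted line at 0 counts. Dsg2 and Pkp3 stay within a narrow band, while Ivl, Sprr1a, Dsc3, Dsg3 and Pkp1 spread widely between libraries, Pkp1 from 5.37 to 1240 CPM, and the square and triangle of the day 6 group mark its high and low extremes.

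Dsg2 and Dsc2 are the cadherin pair of simple epithelia. Dsg2 was at 146, 180 and 154 CPM in WT organoids, and between 109 and 230 in all 17 tumor libraries. Its group means ran from 154 CPM at day 0 to 195 in Neu-NDL organoids, and each neighbor in that order overlapped the next. Dsc2 was at 76.6, 109 and 108 CPM in WT organoids, 42.3, 58.8 and 68.2 in PyMT sections, 86.1, 58.7 and 49.9 at day 0 and 77.4, 151 and 146 in Neu-NDL organoids, so the 3 PyMT sections lay below every WT library. Its extremes were 226 CPM in day 6 replicate 2 and 21.1 in Neu-NT replicate 3; the other 4 PyMT libraries of 6 days lay between 56.1 and 75.9 and the other Neu-NT sections at 105 and 83.5.

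Dsc3 and Dsg3, the pair of stratified and basal epithelium, varied far more. Dsc3 was at 45.9, 65.0 and 40.6 CPM in WT organoids and at 0.133, 0.904 and 0.158 in PyMT sections. Neu-NT sections had 0, 0.0451 and 0.207 CPM, the lowest group, with 5 reads in all. Day 0 organoids had 0.312, 1.62 and 0.603 CPM, and Neu-NDL organoids 1.84, 6.07 and 0.746. PyMT organoids of 6 days had 2.28, 44.6 and 0.0388 CPM (day 6) and 5.06 and 6.37 (undated), so only day 6 replicate 2 came into the WT range.

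Dsg3 was nearly constant in WT organoids, at 30.4, 30.8 and 29.1 CPM, and was at 0.267, 1.16 and 0.356 in PyMT sections. It was at 4.26, 5.86 and 0.426 CPM at day 0. After 6 days PyMT organoids had 30.2, 394 and 0.349 CPM (day 6) and 27.8 and 56.4 (undated): 3 libraries were near or above the WT level, day 6 replicate 2 was far above it and the library titled day 6 replicate 3 was in the range of the sections. Neu-NDL organoids had 13.0, 15.8 and 5.22 CPM and Neu-NT sections 1.78, 5.68 and 3.52, all below WT.

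Per kilobase of exon, which allows levels of different genes to be compared, the cadherin mix differed between groups. Dsc3 made up 32.7% ± 6.08 (SD, n = 3) of the summed desmocollin level in WT organoids, 0.671% ± 0.701 in PyMT sections, 0.334% ± 0.533 in Neu-NT sections, 2.18% ± 1.64 in Neu-NDL organoids and at most 8.46% in any PyMT organoid library of 6 days. The Dsc3 share of every tumor library was thus below the lowest WT share of 25.7%. Dsg3 made up 16.2% ± 1.47 of the desmogleins in WT organoids, 0.534% ± 0.569 in PyMT sections and 2.62% ± 2.33 at day 0. In PyMT organoids of 6 days the Dsg3 share ranged from 0.228% to 44.5%, and the 2 undated libraries, at 12.2% and 29.2%, lay on either side of WT. The Dsg2 share was 72.5% ± 3.31 in WT organoids and 97.9% ± 2.32 in PyMT sections, with no overlap. In day 6 replicate 2, Dsg2 was down to 18.1% of desmogleins and Dsc1, a desmocollin of the upper epidermis, made up 47.7% of desmocollins. These shares rest on the exon lengths of GENCODE M21 and carry no test.

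**Figure D2:**
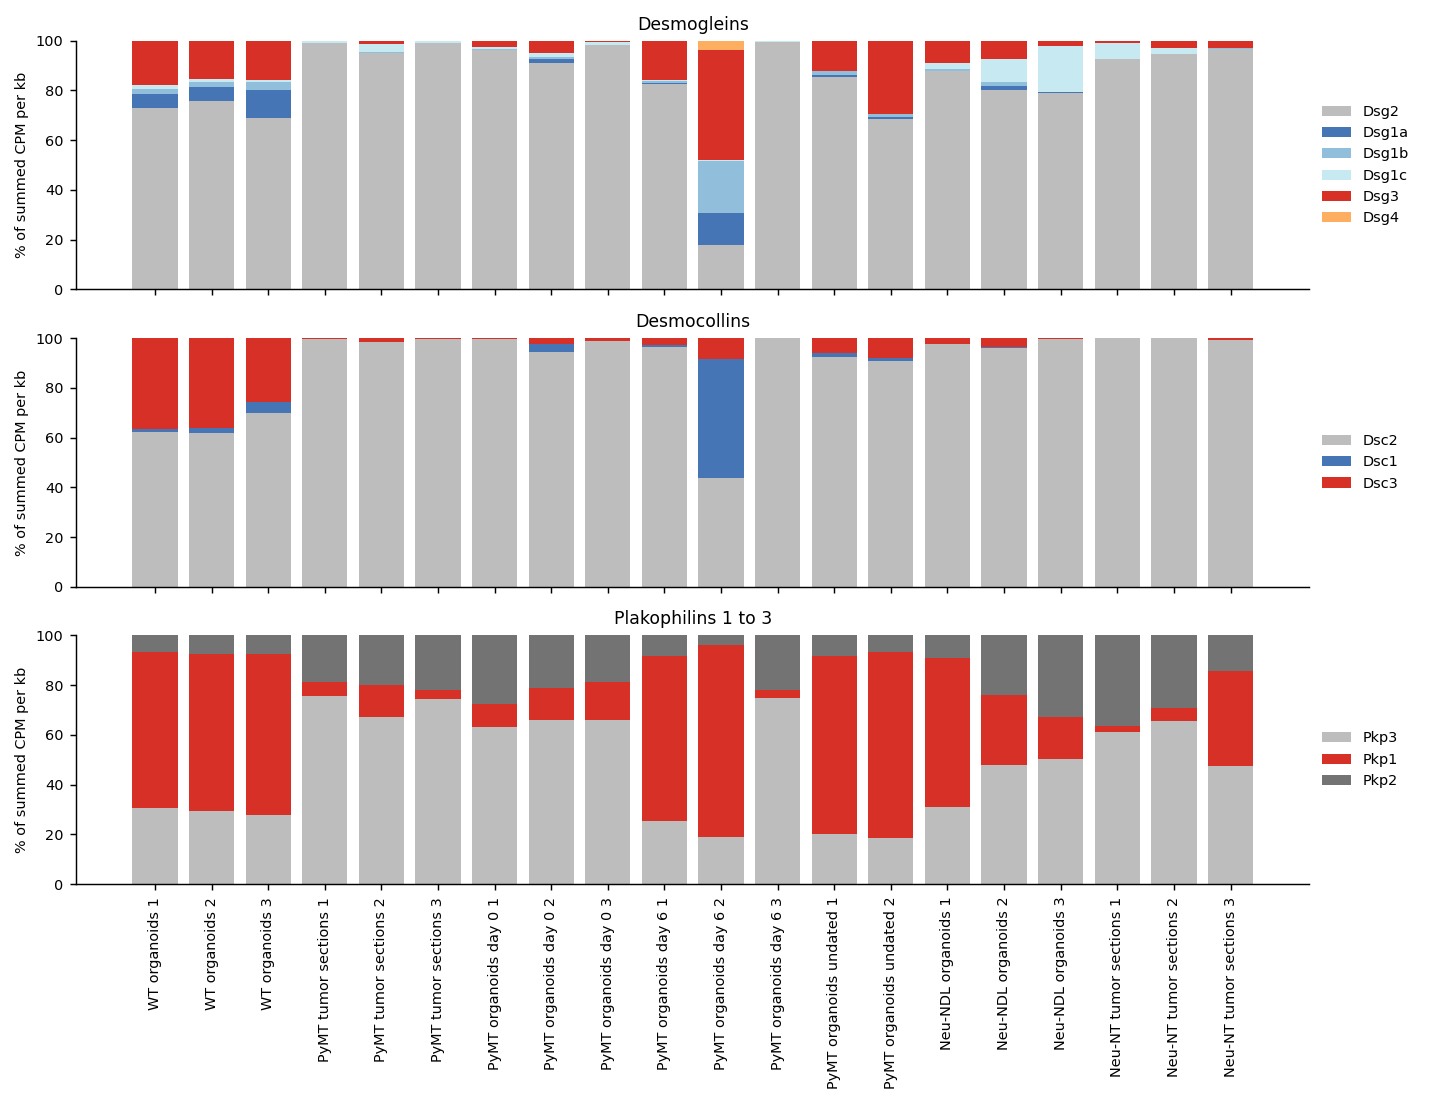
Share of each desmoglein, desmocollin and plakophilin in the summed CPM per kb of its family, 1 bar per library, in percent. The red segments (Dsg3, Dsc3, Pkp1) are present in the 3 WT bars. In the PyMT sections Dsg3 and Dsc3 are nearly absent and Pkp1 is at 3.50% to 12.8%. Pkp1 and Dsg3 are visible in 4 of the 5 PyMT libraries of 6 days, and Dsc3 stays at or below 8.46% in those 5.

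The plaque genes showed 2 patterns. Pkp3, a plakophilin, was at 134, 124 and 134 CPM in WT organoids and between 76.2 and 218 in tumor libraries. The 218 was in day 6 replicate 2, and none of the other 16 was above 135. Dsp, which anchors keratin, was at 517, 627 and 514 CPM in WT organoids and at 93.5, 83.5 and 165 in PyMT sections. Day 0 organoids had 241, 115 and 186 CPM of Dsp. PyMT organoids of 6 days had 815, 1963 and 119 CPM (day 6) and 945 and 767 (undated), so 4 of the 5 were above every WT library and the library titled day 6 replicate 3 was among the sections. Neu-NDL organoids had 310, 426 and 349 CPM and Neu-NT sections 229, 274 and 57.4.

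Pkp1, the plakophilin of stratified epithelia, was at 385, 372 and 429 CPM in WT organoids, 11.7, 25.6 and 7.17 in PyMT sections and 16.9, 28.5 and 34.2 at day 0. PyMT organoids of 6 days had 435, 1240 and 6.71 CPM (day 6) and 673 and 761 (undated), again with 4 of the 5 above every WT library. Neu-NDL organoids had 241, 79.3 and 35.6 CPM, with replicate 1 highest here although replicate 2 was highest for Ivl and Sprr1a. Neu-NT sections had 5.37, 12.1 and 138 CPM. Pkp1 made up 63.6% ± 0.912 (SD, n = 3) of plakophilins 1 to 3 per kilobase in WT organoids, 7.25% ± 4.94 in PyMT sections, 12.5% ± 2.85 at day 0, 48.8% ± 39.9 in the titled day 6 group (3.17% to 77.1%), 73.3% ± 2.20 (n = 2) in undated organoids, 34.9% ± 22.3 in Neu-NDL organoids and 15.3% ± 19.8 in Neu-NT sections. Neu-NT replicate 3 thus had the highest Pkp1 of its group and the lowest Dsp and Dsc2.

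Across the 20 libraries the members fell along these lines only in part. Dsc3 went with Sprr1a (r = 0.93 of log2 CPM), Dsg3 with Pkp1 (r = 0.87) and with Dsp (r = 0.85), while Dsg2 had r between -0.15 and 0.52 with the other 9. Pkp3 had r = 0.63 with Pkp1 and -0.06 with Dsg2, and Dsc2 had r = 0.73 with Dsp and 0.52 with Dsg2. These are descriptions over libraries that share groups and include day 6 replicate 2, which was high for most members. Among 11208 protein coding genes with a mean of at least 5 CPM, the 5 most like Dsg3 were Aldh3a1, Fam162a, Abcc1, Vps35 and Ankrd37 (r 0.92 to 0.94, 20 libraries). Those most like Dsp were Sh3pxd2a, Kdm4b, Smtnl2, Bnip3 and Phf10 (r 0.92 to 0.93), and those most like Ivl were Id4, BC117090, Krt78, Phf7 and Areg (r 0.79 to 0.83).

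PyMT sections had lower levels than WT organoids of 5 members: Ivl, Dsc3, Dsg3, Dsp and Pkp1. Ivl, with 0 reads in the sections, was at least 572-fold lower, with a floor of 3 counts for the whole group (adjusted p = 0.0230, edgeR quasi-likelihood test with Benjamini-Hochberg adjustment over all genes tested, as in all tests below). Dsc3 fell by 7.06 on the log2 scale (SE 1.67, adjusted p = 0.0175) and Dsg3 by 5.74 (SE 1.57, adjusted p = 0.0292). Pkp1 fell by 4.74 (SE 1.39, adjusted p = 0.0376) and Dsp, the smallest of these changes, by 2.28 (SE 0.70, adjusted p = 0.0437). Of all genes tested, 6.05% were called lower in this comparison, against 5 of these 10, and 6.45% were called higher, against 0. The 3 section libraries lay below the 3 WT libraries for 9 of the 10 genes, an arrangement found in that direction for 23.1% of all genes. The median log2 difference of the 10 was -5.24, beside 0.03 over all genes, and was the same with Ivl at its bound. Sprr1a (-6.32, SE 2.36, adjusted p = 0.0854) and Sprr1b (1 read against 151, a ratio of 106 with a counting interval of 18.7 to 4199, adjusted p = 0.144) did not pass, nor did Dsc2 (-0.79, SE 0.52) and Pkp3 (-0.27, SE 0.22). The log2 difference of Dsg2 was -0.03, with an interval (1.96 SE) of -0.52 to 0.46. Leaving out PyMT section replicate 1 or 3 left 0 members called, leaving out section replicate 2 or WT replicate 2 or 3 left 1 (Dsc3), and leaving out WT replicate 1 left 2 (Dsc3 and Ivl). Without the 2 libraries that stood apart 6 members were called lower, Sprr1a being the addition, where 12.9% of all genes were. DESeq2 called the same 6 (7.78% of genes). A fit of only the 6 libraries compared called 8, all but Dsg2 and Pkp3 (14.2% of genes), as did the fit with the replicate number as a block (11.7%).

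Of 8 tested other desmosome genes, 2 fell and 0 rose: Perp, a membrane protein needed for desmosome assembly, by 1.75 (SE 0.49, adjusted p = 0.0333) from a mean of 387 to 115 CPM, and Dsg1a (-7.82, SE 2.39, adjusted p = 0.0437). Dsg1a, Dsg1b and Dsg1c share between 29.6% and 48.9% of their 50-base stretches with other genes, foremost each other, so reads may be split or lost among them. Plakoglobin (Jup) was at 287 to 402 CPM in the sections and 341 to 376 in WT, a log2 difference of -0.0047 (SE 0.73). Pkp2 and Pkp4 differed by -0.10 and -0.22 (SE 0.20 and 0.33). Of 31 tested other cornified envelope genes 0 were called by edgeR (4 lower at an unadjusted p under 0.05) and 3 lower by DESeq2, of 13 envelope enzymes 1, and of 10 stratified epithelial keratins 2, Krt6a (-9.30, SE 2.53, adjusted p = 0.0289) and Krt15 (-6.10, SE 1.84, adjusted p = 0.0412), all lower. Cdh3 (P-cadherin), the adherens junction cadherin of basal cells, fell by 3.79 (SE 0.63, adjusted p = 0.00506), from 61.3 to 4.42 CPM. Without the 2 libraries that stood apart the numbers called lower were 4 of 8, 3 of 31, 5 of 13 and 7 of 10. In the same comparison 6 of the 10 basal and myoepithelial markers were lower and 4 of 10 macrophage and 5 of 8 tested lymphocyte markers higher. Also called were 4 of 9 skeletal muscle and erythroid markers, 1 of 10 fibroblast and 1 of 8 adipocyte markers, all higher, and 2 of 10 luminal and 1 of 6 tested epidermal keratinocyte markers, all lower. Of 10 endothelial markers, 9 had all 3 sections above WT and 3 were higher at an unadjusted p under 0.05 by edgeR, none of them at an adjusted one. The macrophage sum was 174 to 276 CPM in WT organoids and 558 to 873 in PyMT sections, and the endothelial sum 15.8 to 71.6 and 143 to 221; the part of these cell types in the members' fall was not tested.

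Neu-NT sections had less Dsc3 than WT organoids, by 9.29 on the log2 scale (SE 1.93, adjusted p = 0.00477), the only member called by edgeR, where 8.47% of all genes were called lower. Their libraries lay below WT for 7 of the 10 genes, against 21.3% of all genes. Dsg3 (-3.04, SE 1.34, adjusted p = 0.122), Dsp (-1.56, SE 0.68, adjusted p = 0.118), Pkp1 (-2.93, SE 1.28, adjusted p = 0.119), Sprr1a (-6.32, SE 2.37, adjusted p = 0.0726) and Ivl (-3.50, SE 1.76, adjusted p = 0.179) did not pass. Nor did Sprr1b, with 0 reads against 151 in WT organoids (adjusted p = 0.106). Dsg2 was at 0.25 (interval -0.24 to 0.74) and Dsc2 at -0.48 (interval -1.50 to 0.53). Without Neu-NT replicate 3 there were 2 calls, Dsc3 and Pkp1 (10.9% of genes), and without both libraries that stood apart there were 5, adding Dsg3, Dsp and Sprr1a (14.3% of genes). Replicates 1 and 2, which then remain, had the lowest chi-square per degree of freedom within any group (45.2). Leaving libraries out changes the estimate of the spread, and the part of this likeness in the added calls was not tested. DESeq2 called 4 (Dsc3, Dsg3, Pkp1 and Sprr1a, beside 9.20% of genes), the fit of only the libraries compared 5 (Dsc3, Dsg3, Ivl, Sprr1a and Sprr1b, 8.97%) and the block 4 of these, without Sprr1b (4.88%).

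Of the 8 other desmosome genes, Perp (-2.01, SE 0.50, adjusted p = 0.0122) and Dsg1a (1 read against 1308, a ratio of 753 with a counting interval of 135 to 29748, adjusted p = 0.0274) fell in Neu-NT sections, while Pkp4, a plakophilin relative found at adherens junctions and desmosomes, rose by 1.18 (SE 0.34, adjusted p = 0.0232). Jup passed as higher (3.16, SE 0.79, adjusted p = 0.0125), but its values were 465, 510 and 8525 CPM and without replicate 3 the difference was 0.46 (adjusted p = 0.190). The type I keratins of chromosome 11 on the gene lists were also highest of the 3 sections in that library. They were chosen after their values were seen, and the share of all genes that were highest there was not computed. A cause was not tested. Krt14 was at 0.907, 3.20 and 1453 CPM, Krt17 at 10.3, 31.2 and 1045, and Krt19 at 2.84, 4.24 and 4606. The others reached lower levels there: Krt10 at 117 CPM, Krt15 at 27.9, Krt16 at 14.3 and Krt13 at 0.414, against at most 10.3, 0.270, 0.721 and 0.0756 in the other 2 sections. Krt5, the type II partner of Krt14 on chromosome 15, was at 0.0756, 0.225 and 26.4 CPM, and its fall against WT (-6.61, SE 1.94, adjusted p = 0.0266) was joined by Krt6a and Krt6b among 4 of 10 stratified keratins called lower, which became 7 of 10 without the 2 libraries that stood apart. In this comparison 6 of 10 basal markers were lower and 7 of 10 macrophage and 5 of 8 lymphocyte markers higher; their part in the result was not tested. Among 13 enzymes of envelope formation, Spink5, an inhibitor of the kallikreins that shed epidermal cells, fell by 6.44 (SE 1.41, adjusted p = 0.00640). Klk6, a kallikrein, was called higher (5.92, SE 1.82, adjusted p = 0.0332) with 2.23, 22.7 and 191 CPM, and without replicate 3 its adjusted p was 0.140.

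Neu-NDL organoids, compared with WT organoids after the same 6 days, had 0 of 10 members called by edgeR, with 2 at an unadjusted p under 0.05, and 1 (Dsc3, lower) by DESeq2, which called 4.44% of genes lower. Of all genes, edgeR called 2.06% lower and 2.47% higher. The 3 Neu-NDL libraries lay below the 3 WT libraries for 6 of the 10 genes, beside 19.2% of all genes: Ivl (-2.77, SE 1.69), Dsc3 (-4.13, SE 1.42, adjusted p = 0.103), Dsg3 (-1.41, SE 1.24), Dsp (-0.61, SE 0.67), Pkp1 (-1.74, SE 1.22) and Pkp3 (-0.57, SE 0.22, adjusted p = 0.138). Dsc3 was called lower without the 2 libraries that stood apart, where 6.12% of all genes were; neither is in this comparison, and leaving them out changes the estimate of the spread. Dsc3 was also called with the replicate number as a block (0.905% of genes) and, with Pkp3, in the fit of only the libraries compared (4.65%). Of the other adhesion genes, Cdh3 fell by 2.63 (SE 0.59, adjusted p = 0.0231). Dsg1c was at 2.40, 12.1 and 25.2 CPM in Neu-NDL and 1.01 to 1.34 in WT organoids (adjusted p = 0.0655). In the same comparison 5 of 10 basal markers were lower and 4 of 10 macrophage markers higher, with a macrophage sum of 401 to 1974 CPM in Neu-NDL organoids; their part was not tested.

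PyMT organoids of 6 days (day 6 and undated groups with equal weight) had 0 of 10 members called against WT organoids by edgeR, with 2 lower at an unadjusted p under 0.05, and 0 by DESeq2. Of all genes, 1.40% were called higher and 2.49% lower. Ivl alone did not overlap, with all 5 libraries below WT (-5.13, SE 1.61, adjusted p = 0.0917), an arrangement of 9.87% of genes in that direction. Dsc3 was at -2.42 (SE 1.12, adjusted p = 0.235). Dsg3 (1.36, interval -0.90 to 3.62), Dsp (0.72, interval -0.48 to 1.92) and Pkp1 (0.68, interval -1.46 to 2.82) had wide intervals on both sides of 0. Without the 2 libraries that stood apart, Dsp was called higher and Ivl lower (7.48% and 9.04% of genes). Without day 6 replicate 2, Dsc3 and Ivl were called lower (2.11% of genes). Of 10 basal markers, 6 were called lower and 0 higher in PyMT organoids, and 3 had a positive log2 difference. The part of basal cells was not tested.

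**Figure D3:**
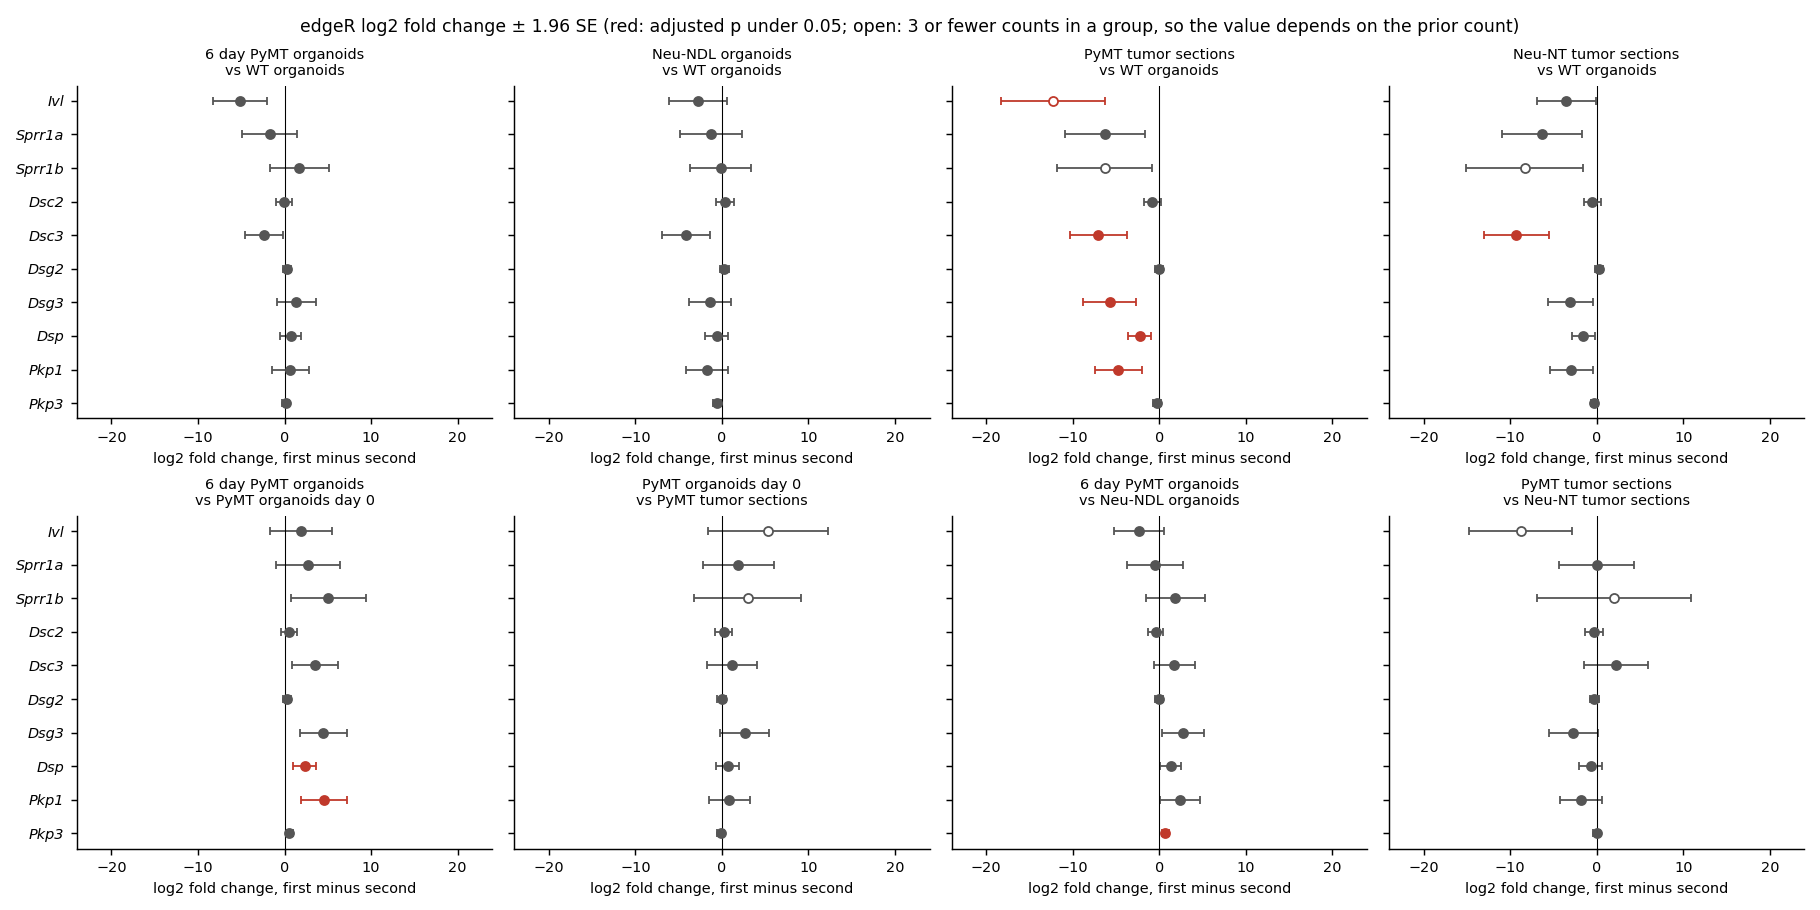
Log2 fold change of each member in the 8 comparisons, with 1.96 SE as bars; red marks an adjusted p under 0.05 and open points have 3 or fewer counts in a group. Red points stand on the lower side for 5 genes in PyMT sections and for Dsc3 in Neu-NT sections against WT, and on the higher side for Dsp and Pkp1 after culture and for Pkp3 against Neu-NDL.

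Culture was addressed by setting PyMT organoids of 6 days against those of day 0. Dsp rose by 2.33 on the log2 scale (SE 0.66, adjusted p = 0.0431), from a mean of 181 to 921 CPM, and Pkp1 by 4.58 (SE 1.34, adjusted p = 0.0465), from 26.5 to 623 CPM. These 2 of 10 compare with 4.10% of all genes called higher; 0 members were called lower, beside 4.12% of genes. In each case 4 of the 5 cultured libraries were above all 3 of day 0, and the library titled day 6 replicate 3 was not. Dsg3 (4.47, SE 1.38, adjusted p = 0.0561), Dsc3 (3.49, SE 1.36, adjusted p = 0.115), Sprr1b (5.07, SE 2.20, adjusted p = 0.157) and Pkp3 (0.55, SE 0.20, adjusted p = 0.0914) did not pass, although the 5 Pkp3 values were all above day 0, as for 5.44% of genes. All 10 differences were positive, with a median of 2.51 beside -0.02 over all genes. Without the library titled day 6 replicate 3, 5 members were called higher, adding Dsg3, Dsc3 and Pkp3 (10.3% of all genes), and without both libraries that stood apart 6, adding Sprr1b (14.3%). DESeq2 called 4: Dsp, Pkp1, Dsg3 and Dsc3 (7.54% of genes). Leaving out any other single library of the comparison left 0 members called. The 8 fits with 1 library left out called 232 to 4527 genes in all. With every library, 766 genes were called higher and 771 lower. With the replicate number as a block, which day 6 and day 0 libraries share, and the titled day 6 libraries alone, 0 genes of any kind were called.

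Of the 8 other desmosome genes, Perp rose after culture, by 2.04 (SE 0.47, adjusted p = 0.0204). It went from 104 to 173 CPM at day 0 to 390, 1310, 200, 472 and 564, all above day 0. Cdsn, which encodes corneodesmosin, the glycoprotein of cornified cell junctions, rose by 4.86 (SE 1.10, adjusted p = 0.0192) as 1 of 31 other envelope genes. Maf, a transcription factor on the list of squamous differentiation regulators, rose by 2.28 (SE 0.56, adjusted p = 0.0245). Cdh3 (2.68, SE 0.57, adjusted p = 0.0151) and Epcam (0.71, SE 0.20, adjusted p = 0.0392) were the 2 of 12 adherens junction and epithelial genes that rose. Of 13 enzymes and 10 keratins 0 were called by edgeR (4 of each higher at an unadjusted p under 0.05) and 3 of each, higher, by DESeq2; without the 2 libraries that stood apart 5 of 13 and 6 of 10 were higher. In this comparison 4 of 10 endothelial markers were lower, and 1 basal marker was higher and 2 lower; the part of these cells in the rise was not tested.

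**Figure D4:**
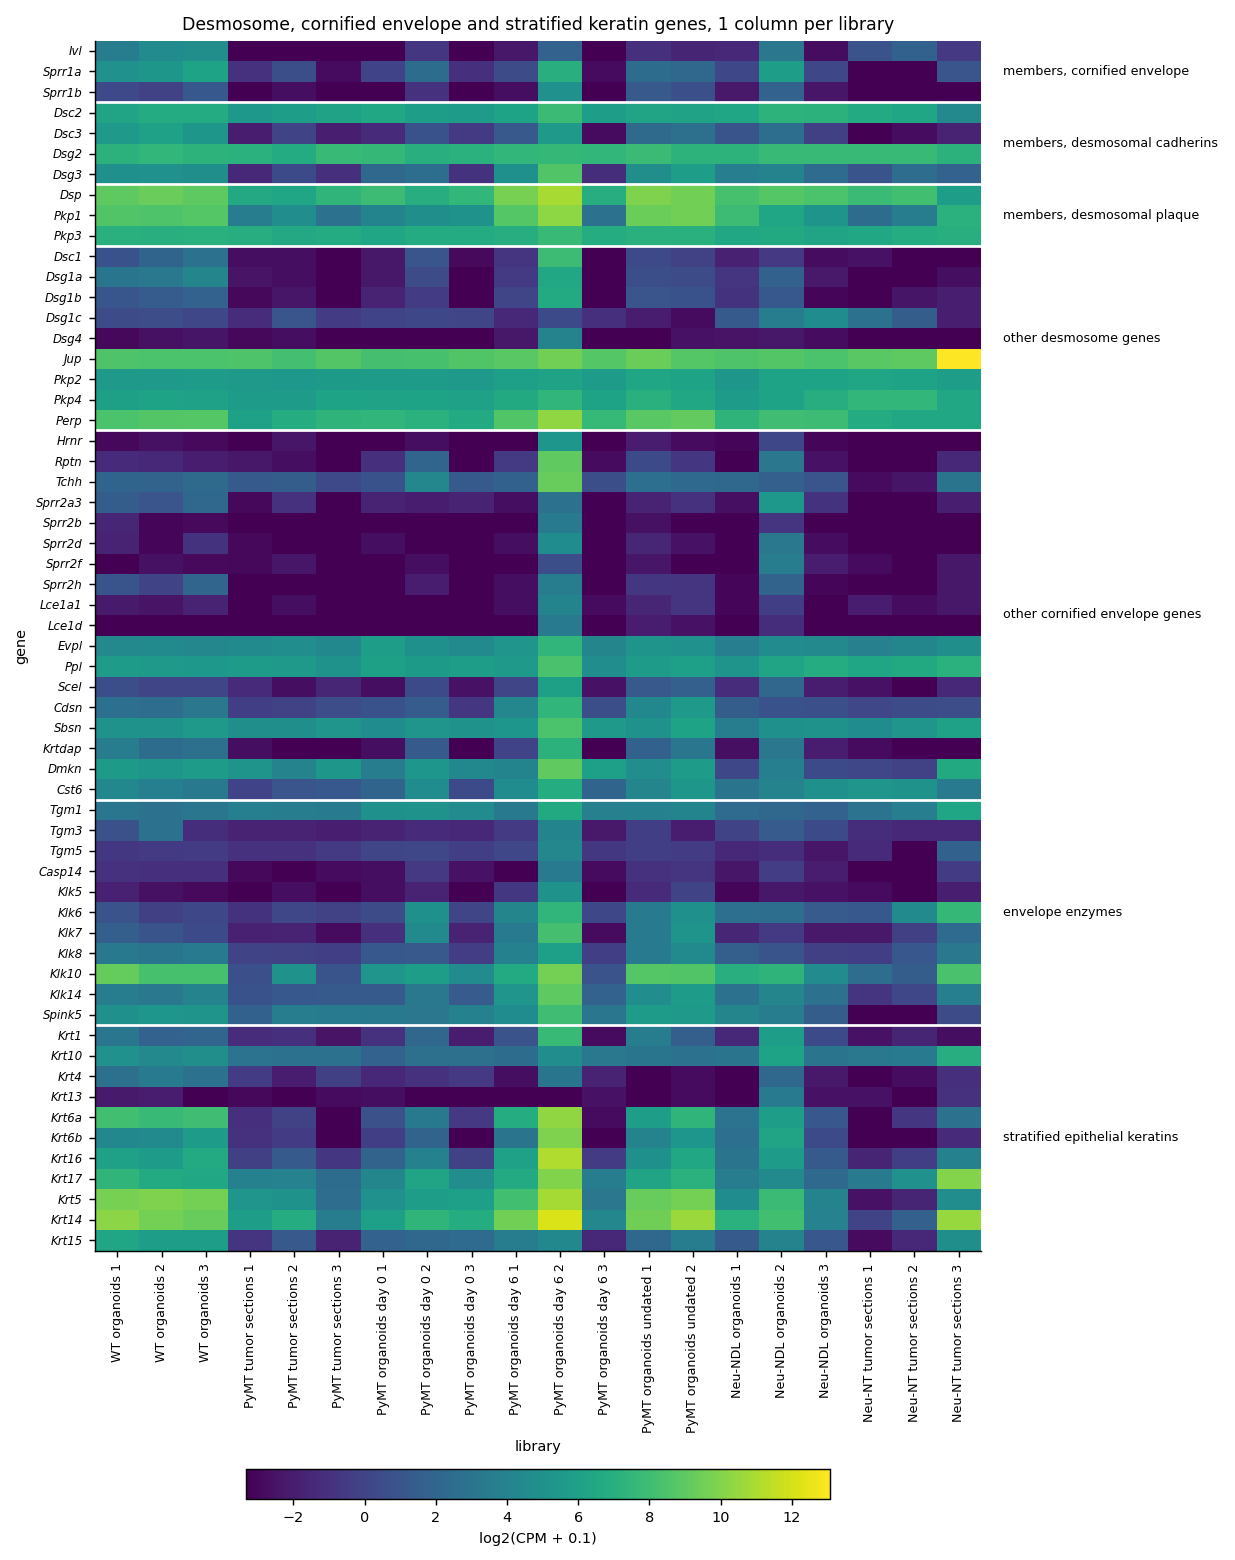
Log2(CPM + 0.1) of the members and of the other desmosome, envelope, enzyme and keratin genes that reached 10 CPM in at least 1 library, 1 column per library. The column of day 6 replicate 2 is bright in nearly every row, Neu-NDL replicate 2 is brighter than its group in the Sprr2 rows and in Krt1 and Krt13, and the column titled day 6 replicate 3 looks like those of the PyMT sections.

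The heat map of pathway genes shows how far day 6 replicate 2 departed from the other libraries. Besides the members, it held 235 CPM of Dsc1, 541 of Rptn (repetin, an envelope precursor), 596 of Tchh (trichohyalin), 149 of Krtdap, 2245 of Krt16 and 1282 of Krt6a. The other 4 PyMT libraries of 6 days had at most 1.11 CPM of Dsc1, 1.17 of Rptn, 6.34 of Tchh, 8.36 of Krtdap, 89.1 of Krt16 and 171 of Krt6a. Of the late epidermal genes, loricrin (Lor) was at 4.13 CPM and filaggrin (Flg) at 0.0342 in day 6 replicate 2. Neu-NDL replicate 2 held 43.2 CPM of Sprr2a3, 55.9 of Krt1 and 10.2 of Krt13, against at most 0.433, 1.15 and 0.0722 in the other Neu-NDL libraries; Sprr2a3 has near-identical copies, so its reads may be split among them.

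Fresh PyMT organoids of day 0 and PyMT sections did not differ in any member by edgeR (0 of 10 called, 0 at an unadjusted p under 0.05) or DESeq2 (0 called), in a comparison in which 0.428% of all genes were called higher and 0.0160% lower. Dsg3 differed by 2.63 (SE 1.46, adjusted p = 0.792), Pkp1 by 0.84 (SE 1.21, adjusted p = 0.976) and Dsp by 0.66 (SE 0.67, adjusted p = 0.932), higher at day 0. With the 2 libraries that stood apart left out, 0 members were called as well. The intervals were wide: -0.23 to 5.48 for Dsg3 and -0.64 to 1.97 for Dsp.

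Between the 2 tumor models after the same culture, Pkp3 was higher in PyMT than in Neu-NDL organoids by 0.70 (SE 0.20, adjusted p = 0.0442). All 5 PyMT libraries (114 to 218 CPM) were above the 3 of Neu-NDL (76.2 to 97.5), as for 6.36% of genes, and 2.42% of all genes were called higher. Of the members 0 were called lower, beside 4.70% of genes. Dsg3 (2.77, SE 1.24, adjusted p = 0.174), Dsp (1.33, SE 0.63, adjusted p = 0.198) and Pkp1 (2.42, SE 1.19, adjusted p = 0.215) did not pass, but all 3 were called without the 2 libraries that stood apart, which gave 4 members higher (10.8% of all genes). Without the library titled day 6 replicate 3 alone, 3 were called (Dsg3, Dsp and Pkp3, beside 6.09% of genes), and DESeq2 called Pkp3 alone (5.52%). Leaving out day 6 replicate 2, either undated library or any 1 Neu-NDL library left 0 members called. The 8 fits with 1 library left out called 173 to 3109 genes in all. With every library, 453 genes were called higher and 878 lower. Dsg1c was lower in PyMT organoids by 5.80 (SE 1.01, adjusted p = 0.00844), at 0.0368 to 1.16 CPM against 2.40 to 25.2. Cdsn (4.55, SE 1.07, adjusted p = 0.0230), Tfap2a (1.14, SE 0.31, adjusted p = 0.0387), Prdm1 (2.34, SE 0.62, adjusted p = 0.0369) and E-cadherin, Cdh1 (0.85, SE 0.24, adjusted p = 0.0466), were higher. Of 10 macrophage markers, 6 were lower in PyMT organoids; their part in these differences was not tested.

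Between the sections of the 2 models 0 of 10 members were called by edgeR (1 lower at an unadjusted p under 0.05) and 1, Ivl, by DESeq2 (8.39% of genes lower), where edgeR called 4.57% of all genes higher and 5.13% lower in PyMT. Ivl had 0 counts in PyMT and 0.569 to 3.24 CPM in Neu-NT sections, at least 51.9-fold lower (adjusted p = 0.0824). Dsg3, at 0.267 to 1.16 against 1.78 to 5.68 CPM, did not overlap either (-2.70, SE 1.46, adjusted p = 0.258). Without the 2 libraries that stood apart, Ivl and Dsp were called lower in PyMT sections (11.6% of all genes). Of the other desmosome genes, Pkp4 was lower in PyMT sections by 1.40 (SE 0.34, adjusted p = 0.0181), at 50.05 to 72.1 against 182, 185 and 92.0 CPM. Jup was lower by 3.17 (SE 0.79, adjusted p = 0.0211), and by 0.47 (adjusted p = 0.215) without Neu-NT replicate 3. Cst6, a cystatin of the envelope (-4.02, SE 1.15, adjusted p = 0.0382), and Cebpb, a regulator of keratinocyte differentiation (-0.99, SE 0.26, adjusted p = 0.0276), were lower too.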

How the data were processed

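TruSeq libraries were made from polyadenylated RNA after TRIzol extraction, per the labels. The deposited values are raw counts of reads per gene, 1 table per library; the submitters' processing notes name mm10 and, with no version, STAR, HTSeq, DESeq2, FastQC and CASAVA. The annotation release and strand setting are not given in the sources used here, so genes that overlap another cannot be told apart by strand. The 5 rows that name no gene held 22.5% to 28.4% of all rows' counts and were left out. GENCODE M21 gave names, positions and exon lengths (44585 of 45318 IDs matched), and RefSeq (GRCm38.p6) the promoters.

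One edgeR 4.0.16 quasi-likelihood model (R 4.3.3, TMM scaling, filterByExpr, robust, 1 mean per group, 20 libraries, 13 residual degrees of freedom) tested 18698 genes. Calls are Benjamini-Hochberg adjusted p under 0.05 over all genes. SE is the log2 fold change over the square root of F. Log2 CPM for correlations used a prior count of 2; figures added 0.1 CPM. Floors are 3 counts over a group; intervals of count ratios are 95% and cover counting error only. The fit was tested on simulated data.

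The members and the 6 pathway and 9 marker lists were chosen with earlier results of these data known. Named by rule were the members, all tested other desmosome genes, and up to 4 genes per list and comparison with the largest changes among those that passed and had a mean of at least 10 CPM in the higher group; the 5 genes most like Ivl, Dsg3 and Dsp are protein coding. Genes of day 6 replicate 2 and Neu-NDL replicate 2 given as CPM, and the keratins of chromosome 11, were chosen after their values were seen. A gene of the regulator list that the rule names is not reported here. Day 6 and day 0 libraries with the same number deviated together (r 0.287, 0.428 and 0.317 over genes), so a fit with these numbers as a block was made too; the labels state no pairs. Alternatives were no filter, DESeq2 1.42.0, RLE factors, only the libraries compared, either 6 day PyMT set alone, Neu-NT replicates 1 and 2 summed, the block, no libraries that stood apart, and each library left out.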

Additional observations from a re-analysis of the deposited data

Results flagged for a closer look

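In the 5 PyMT organoid libraries labelled 6 days, the group large enough for a check of single libraries, the gap of the extreme library to its neighbor was compared with Dixon's 95% critical value on log2 CPM for each of the 10 genes. It was exceeded for 3. Dsc2 was at 226 CPM and Pkp3 at 218 CPM in day 6 replicate 2, both the highest. Pkp1 was at 6.71 CPM in the library titled day 6 replicate 3, the lowest. Chance gives about 1 such result in 20 groups. For Dsg3, Dsp, Dsc3 and the envelope genes the same 2 libraries were the extremes, on opposite sides, without exceeding it.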

How the results depend on the processing

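Of the 10 members, 5 were lower in PyMT sections than in WT organoids: this became 1 with no filter on low counts, 8 with only the libraries compared and 8 with the replicate block, and 0 to 2 when a replicate was left out. For Neu-NT sections, 1 member became 4 with DESeq2, 5 with only the libraries compared, 4 with the block and 5 without the 2 libraries that stood apart, and 1 to 2 with a replicate left out. For Neu-NDL organoids, 0 lower became 1 with DESeq2, 2 with only the libraries compared, 1 with the block and 1 without those 2 libraries. For PyMT organoids of 6 days against WT, 0 became 1 higher and 1 lower without those 2 libraries, and 0 to 2 lower with a replicate left out. Against day 0, 2 higher became 0 with no filter, 4 with DESeq2, 0 with only the libraries compared, 0 with the block, 0 with the titled day 6 libraries alone, 1 with the undated alone and 6 without those 2 libraries, and 0 to 5 with a replicate left out. Against Neu-NDL, 1 higher became 0 with no filter, with only the libraries compared, with the block and with either 6 day set alone, 4 without those 2 libraries and 0 to 3 with a replicate left out. Between sections, 0 lower became 1 with DESeq2 and 2 without those 2 libraries. The number of all genes called moved too. With a replicate left out, it was 525 to 1729 for PyMT sections and 1830 to 4060 for Neu-NT sections against WT. Against WT it was also 115 to 1291 for Neu-NDL and 81 to 2025 for PyMT organoids of 6 days. It was 232 to 4527 against day 0, 173 to 3109 against Neu-NDL and 721 to 3095 between sections. The undated libraries alone had 5.06% of all genes higher against day 0. The cause of these changes was not tested. The call of Dsc3 in Neu-NT sections held in 13 of 13 settings and that in PyMT sections in 10 of 12. The other calls held less often. In PyMT sections, Ivl held in 6 of 12 settings and Dsg3, Dsp and Pkp1 in 5 of 12 each. After culture, Dsp held in 4 of 16 and Pkp1 in 5 of 16, and Pkp3 against Neu-NDL held in 5 of 16.

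Fold changes are printed for 44 of the 80 pairs of member and comparison, and those pairs were chosen after the sign changes under the alternatives had been seen; the steadiness of the printed values is therefore not that of all members. Over all 80 pairs the sign changed in 50 of 1088 alternative fits, in 24 pairs; 6 of these changes fell in the printed pairs, 44 in the other 36, and 0 in the 9 called ones. In the printed pairs, Dsg3 of 6 day PyMT against WT organoids went to -0.18 with the replicate block and titled day 6 libraries, and Pkp1 to -0.62. With a replicate left out, Dsg3 there ranged from -0.22 to 1.65, and Dsg2 of PyMT sections against WT from -0.35 to 0.16. Only day 6 and day 0 libraries of 1 number deviated together in every pair; elsewhere the block rests on the number alone. DESeq2 gave no adjusted p for Sprr1b in 2 of the printed comparisons. Low counts limit Ivl (0 reads) and Sprr1b (1 read) in PyMT sections. In Neu-NT sections they limit Sprr1b (0 reads), Dsc3 (5 reads) and Sprr1a (36 reads, all in replicate 3).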
